A study of Mus musculus with 2 samples.

Results

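The genes described here are 8 of the 32285 genes counted, chosen by symbol from a list of synaptic adhesion genes and the protease that sheds neuroligin-3. They are the neuroligins *Nlgn1*, *Nlgn2* and *Nlgn3*, the leucine-rich repeat transmembrane genes *Lrrtm1* and *Lrrtm4*, the neurexins *Nrxn2* and *Nrxn3*, and *Adam10*. Their transcripts, counted as UMIs (molecular identifiers, 1 per captured transcript), were read in single cells of mouse optic glioma, across tumor-like, glial, stromal, immune and pituitary cells. All 8 passed the filter on low counts of the test used below.

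Neurexins are adhesion proteins of the presynaptic membrane, and neuroligins and LRRTM proteins are their partners on the postsynaptic side. These pairs hold the synapse together and align transmitter release with receptors, and oligodendrocyte precursors, which receive synapses from axons, transcribe many of the same genes. ADAM10 is a membrane metalloprotease that cuts the ectodomains of many surface proteins, neuroligin-3 among them, and shed neuroligin-3 is known as a growth signal for glioma cells, including those of *Nf1* optic glioma mice.

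Droplet-based single-cell RNA sequencing was done on optic nerves of *Nf1*-OPG mice, a model of the optic pathway glioma of neurofibromatosis type 1. These mice are *Nf1* flox/mut with GFAP-Cre on a strict C57BL/6 background. Every cell carries the mutant allele, and Cre deletes the floxed one in the GFAP lineage of neuroglial cells. The 2 libraries are called C-ON, whose title adds the word control, and FMC_new, and the labels explain neither name. Both are labelled with the same genotype, and no treatment is given. According to the labels, nerves of 10 mice aged 12 weeks were pooled, while the methods speak of individual tumors, so the number of animals behind each library is uncertain. The protocol also names meningeal dura. Without a wild-type nerve, cell classes were compared and not genotypes, and neoplastic and normal oligodendrocyte precursors cannot be told apart in the class called tumor-like here.

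C-ON held 10845 barcodes with 85101211 UMIs and FMC_new 21341 barcodes with 129113325 UMIs, of which 8834 and 16818 cells were kept. They fell into 37 clusters, of which 26 were named as 14 classes from marker genes, and 11 clusters with 3133 cells were left without a name. The tumor-like class had 210 cells in C-ON and 1285 in FMC_new, with *Pdgfra* in 84.8% and 77.1% of cells, *Olig2* in 79.5% and 72.5% and *Gpr17* in 48.1% and 42.6%. FMC_new held pituitary cells and free pituitary RNA, since *Gh*, the growth hormone gene, had a UMI in 99.9% of its tumor-like and 99.9% of its T cell-like cells and in 0 of 210 tumor-like C-ON cells, with an exact 95% upper limit of 1.74%. *Mbp*, a myelin gene, had a UMI in 93.6% and 95.2% of T cell-like cells, a class that makes no myelin. The libraries shared 188 barcodes among kept cells, and 17 tumor-like cells carried one of these.

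The members lie on 7 chromosomes of GRCm38. *Nlgn1* (chr3:25426215-26332460, minus strand, 906.2 kb), *Nrxn3* (chr12:88722876-90334935, plus strand, 1612 kb) and *Lrrtm4* (chr6:80018877-80810143, plus strand, 791.3 kb) are very long genes. *Nlgn2* (chr11:69823122-69837784, minus strand, 14.66 kb), *Nlgn3* (chrX:101299168-101325963, plus strand, 26.8 kb) and *Adam10* (chr9:70678997-70780229, plus strand, 101.2 kb) are shorter. *Nrxn2* (chr19:6418731-6544169, plus strand, 125.4 kb) overlaps *Slc22a12* on the other strand, and *Lrrtm1* (chr6:77242689-77257791, plus strand, 15.1 kb) lies inside *Ctnna2*, which runs the other way. Whether intronic reads were counted is not given in the sources used here. Levels are therefore compared between classes for 1 gene at a time and not between genes.

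The neuroligins are paralogs, so the longest coding stretch that a pair shares without a mismatch bears on whether a read can be assigned to the right gene. It was 23 bases for *Nlgn1* and *Nlgn3*, 23 bases for *Nlgn2* and *Nlgn3* and 17 bases for *Nlgn1* and *Nlgn2*. *Nrxn2* and *Nrxn3* shared at most 23 bases and *Lrrtm1* and *Lrrtm4* at most 15. Both neuroligin stretches of 23 bases are shown with 15 bases on each side, from the GRCm38 genome and GENCODE coding exons, because *Nlgn3* is the substrate of the protease. Capitals mark the shared bases, and positions count from the first base of the start codon.
Nlgn1, coding bases 1171 to 1223: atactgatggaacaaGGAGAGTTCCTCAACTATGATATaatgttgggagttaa
Nlgn3, coding bases 1156 to 1208: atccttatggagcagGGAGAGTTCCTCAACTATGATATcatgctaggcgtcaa
Nlgn2, coding bases 1540 to 1592: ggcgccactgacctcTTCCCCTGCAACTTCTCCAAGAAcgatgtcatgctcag
Nlgn3, coding bases 1600 to 1652: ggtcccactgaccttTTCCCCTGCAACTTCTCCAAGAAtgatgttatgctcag

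RefSeq promoters, here the 250 bases before a transcript start on GRCm38.p6, were matched for 6 of the 8 members, all but *Nlgn3* and *Nrxn2*. The first promoter of *Lrrtm4* is shown because most of that gene's UMIs lay in tumor-like cells, that of *Nlgn2* because it holds the same motif, and that of *Adam10* because this was the member lower in tumor-like cells. Capitals mark CAGCTG, an E-box that reads alike on both strands and that 13% of 32851 mouse promoters of this length hold.
Lrrtm4, chr6:80018627-80018876, plus strand: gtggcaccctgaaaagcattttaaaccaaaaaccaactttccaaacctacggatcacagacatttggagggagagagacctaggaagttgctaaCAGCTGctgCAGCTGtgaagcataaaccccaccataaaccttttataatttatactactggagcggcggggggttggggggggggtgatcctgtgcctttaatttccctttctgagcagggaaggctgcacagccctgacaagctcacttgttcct
Nlgn2, chr11:69837785-69838034, minus strand: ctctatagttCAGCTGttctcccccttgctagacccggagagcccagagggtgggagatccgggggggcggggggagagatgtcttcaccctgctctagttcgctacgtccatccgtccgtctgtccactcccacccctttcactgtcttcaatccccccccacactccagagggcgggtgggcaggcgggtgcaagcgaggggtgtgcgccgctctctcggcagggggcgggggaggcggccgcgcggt
Adam10, chr9:70678732-70678981, plus strand: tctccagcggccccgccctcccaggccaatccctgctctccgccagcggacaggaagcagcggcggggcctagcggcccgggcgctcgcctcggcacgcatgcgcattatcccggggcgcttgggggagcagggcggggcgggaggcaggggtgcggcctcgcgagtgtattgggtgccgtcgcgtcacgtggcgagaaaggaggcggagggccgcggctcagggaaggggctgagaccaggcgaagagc
The motif stood 2 times in this *Lrrtm4* window, 1 time in a second *Lrrtm4* promoter at chr6:80019393-80019642 and 1 time in the *Nlgn2* window, and in none of the other windows of the members. Other motifs, not marked, were also sought. CACGTG, another E-box held by 6.02% of promoters, stood 1 time in the *Adam10* window. GGGCGG (32.7% of promoters) stood 3 times in the *Adam10* and 3 times in the *Nlgn2* window. ACAAAG (16.5%) stood 1 time in a *Nlgn1* and 1 time in an *Nrxn3* window. The *Adam10* window had a GC content of 74.0% and 29 CpG, against medians of 52.4% and 6 over all promoters, while the *Lrrtm4* window had 49.2% and 3. These matches describe the letters of the windows only.

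The comparison between classes asks which cells of the optic glioma held transcripts of the trans-synaptic adhesion system and of its sheddase. A level in CPM is a gene's UMI count scaled to 1000000 UMIs summed over all cells of the class in 1 library. Values are given first for C-ON and then for FMC_new, with exact Poisson 95% intervals that cover counting error only. Among the named classes of at least 20 cells, each of the 7 synaptic genes was highest in tumor-like cells in both libraries, and *Adam10* was not, as the plot of levels by class shows.

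**Figure D1:**
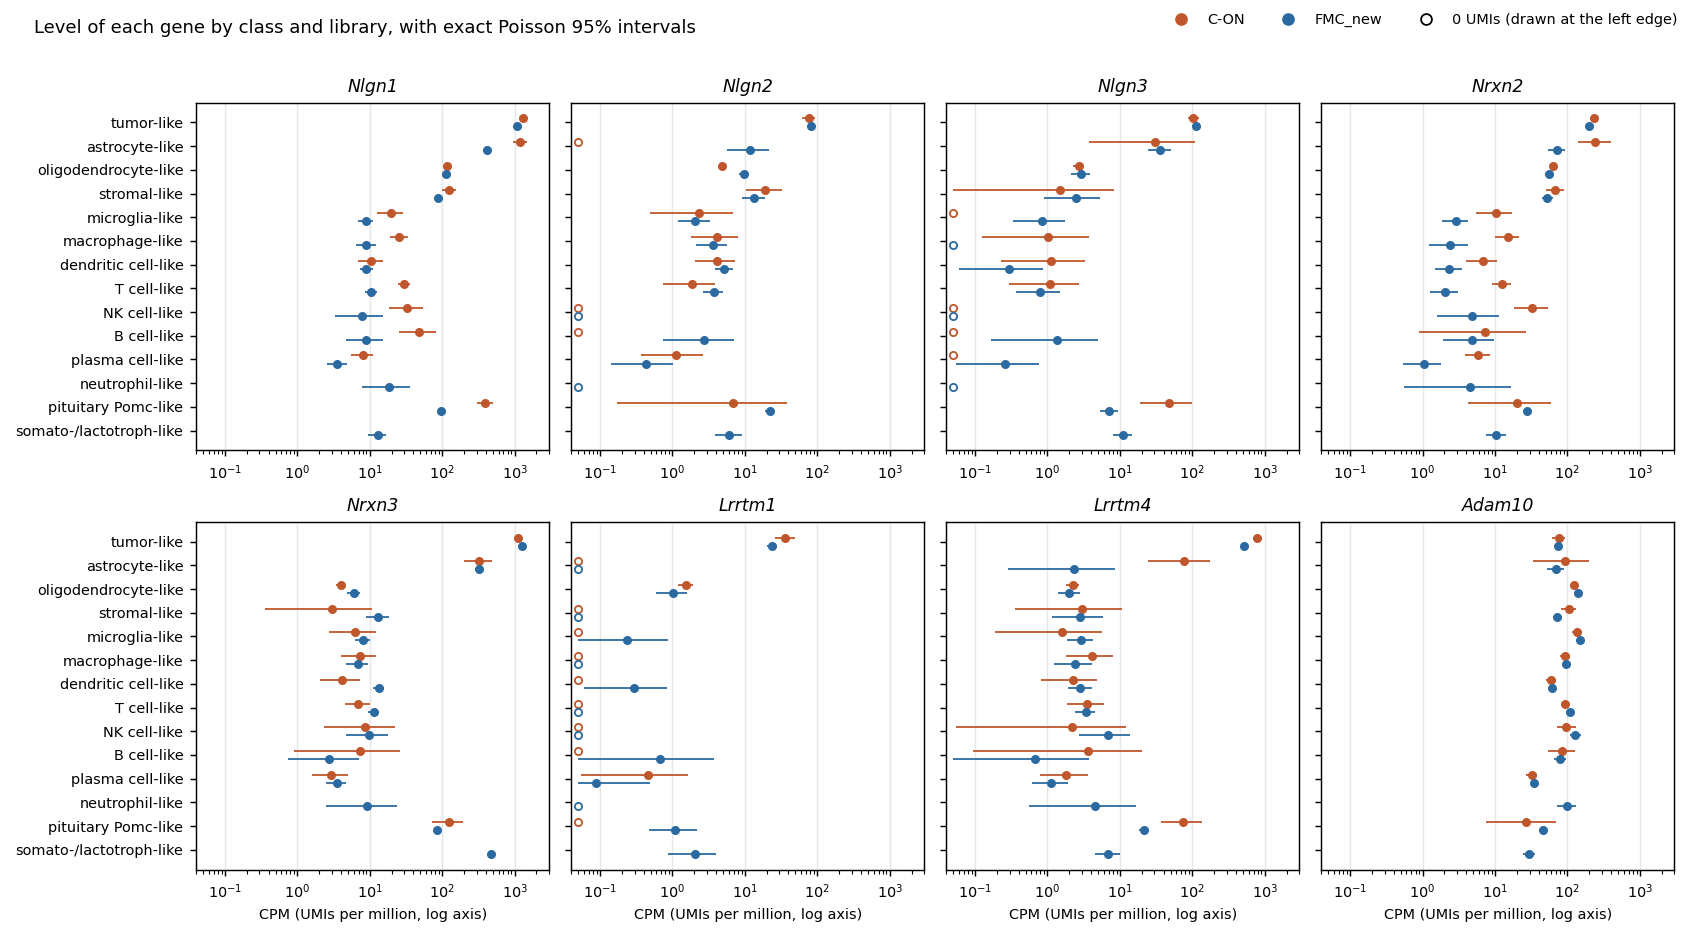
Level of each gene (CPM, log axis) in the 14 named classes, with 1 point per library, bars for exact Poisson 95% intervals and hollow points at the left edge for 0 UMIs. The neutrophil-like class and the pituitary class named for growth hormone and prolactin have a point for FMC_new only. They had 3 and 0 cells in C-ON. *Lrrtm4* stood at 775 and 519 CPM in tumor-like cells and at 2.22 and 2.01 in oligodendrocyte-like cells, while the *Adam10* points of tumor-like cells lie left of those of oligodendrocyte-like and microglia-like cells.

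*Nlgn3*, a neuroligin of both excitatory and inhibitory synapses, was at 104 (86.4 to 124) CPM in the tumor-like class of C-ON and at 111 (104 to 119) in FMC_new, with a UMI in 37.1% and 40% of cells. The intervals of the libraries overlapped. Oligodendrocyte-like cells had 2.699 (2.25 to 3.22) and 2.89 (2.14 to 3.82) CPM, with a UMI in 2.104% and 2.04% of cells at median depths of 8068 and 7865 UMIs. T cell-like cells, which gauge free RNA, had 1.07 (0.291 to 2.73) and 0.794 (0.363 to 1.51) CPM, with a UMI in 0.413% and 0.282% of cells at median depths of 3231 and 3131. The intervals of these classes overlapped in C-ON and stood apart in FMC_new. Astrocyte-like cells had 30.5 (3.69 to 110) CPM in C-ON, from 2 UMIs in 1 of 19 cells, and 36.3 (24.7 to 51.5) in FMC_new.

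*Nlgn1*, the neuroligin of excitatory synapses, was at 1319 (1255 to 1385) CPM in the tumor-like class of C-ON and 1067 (1043 to 1091) in FMC_new, with a UMI in 90.5% and 83.7% of cells. Oligodendrocyte-like cells had 115 and 113 CPM, with a UMI in 44.9% and 41.2% of cells, and stromal-like cells had 124 and 87.6 CPM. Astrocyte-like cells had 1203 (953 to 1500) CPM in C-ON and 416 (373 to 461) in FMC_new, so their interval overlapped that of tumor-like cells in C-ON and lay below it in FMC_new. The 19 astrocyte-like cells of C-ON fall short of the 20 planned for a reported level and are given because they enter the test.

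*Nlgn2*, the neuroligin of inhibitory synapses, was at 76.6 (61.8 to 93.8) and 82.7 (76.1 to 89.6) CPM in tumor-like cells, with a UMI in 31.4% and 31.6% of them. Oligodendrocyte-like cells had 4.85 and 9.79 CPM and stromal-like cells 19.3 and 13.4. Of the 19 astrocyte-like cells of C-ON, 0 had a UMI, with an exact 95% upper limit of 17.6%, and those of FMC_new were at 11.7 (5.61 to 21.5) CPM. Both tumor-like intervals lay above all of these.

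*Lrrtm4*, whose protein binds neurexins and glypicans, was at 775 (726 to 826) CPM in the tumor-like class of C-ON and 519 (502 to 536) in FMC_new, with a UMI in 78.6% and 65.8% of cells. The intervals stood apart, with C-ON the higher. Oligodendrocyte-like cells had 2.22 and 2.01 CPM, with a UMI in 1.82% and 1.55% of cells, and the shallower T cell-like cells 3.47 and 3.35 CPM, with a UMI in 1.34% and 1.19%. Thinned to 1000 UMIs per cell the shares were 0.395% and 0.345% and, in T cell-like cells, 0.742% and 0.384%, with overlapping intervals. *Lrrtm1*, a second LRRTM partner of neurexins, was at 36.2 (26.3 to 48.6) and 24.02 (20.5 to 27.9) CPM in tumor-like cells, with a UMI in 19.5% and 12.1% of them. None of 968 and 3188 T cell-like cells had a UMI of it, with exact upper limits of 0.3804% and 0.116%, nor did any of 19 and 214 astrocyte-like cells. Oligodendrocyte-like cells had 1.52 and 1.003 CPM of this gene.

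*Nrxn3* was at 1101 (1043 to 1162) CPM in the tumor-like class of C-ON and 1247 (1221 to 1273) in FMC_new, with a UMI in 82.4% and 82.8% of cells. Astrocyte-like cells had 319.9 and 319.6 CPM. Oligodendrocyte-like cells had 3.96 and 6.02 CPM, with a UMI in 2.97% and 3.89% of cells, and T cell-like cells 6.94 and 11.3 CPM, with a UMI in 2.27% and 3.86%. Thinned to 1000 UMIs the shares were 0.377% and 0.542% of the former and 1.06% and 1.12% of the latter, and the part of free RNA in them was not tested. *Nrxn2* was at 231 (204 to 259) and 197 (187 to 208) CPM in tumor-like cells and at 63.9 (61.6 to 66.3) and 55.7 (52.2 to 59.4) in oligodendrocyte-like cells, with 12.6 and 2.03 in T cell-like cells. Astrocyte-like cells had 244 (139 to 396) CPM of *Nrxn2* in C-ON, where they overlapped with tumor-like cells, and 71.4 (54.6 to 91.7) in FMC_new.

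*Adam10* was found in every class. In tumor-like cells it was at 75.8 (61.1 to 92.9) CPM in C-ON and 75.2 (68.9 to 81.8) in FMC_new, with a UMI in 30.9% and 30.9% of cells. Microglia-like cells had 136 (117 to 158) and 149.5 (141 to 158) CPM, and oligodendrocyte-like cells 124 (121 to 128) and 139 (134 to 145). Both classes stood above tumor-like cells in each library with intervals that did not overlap. T cell-like cells had 93.2 and 110.3 CPM and macrophage-like cells 92.9 and 95.3. Dendritic cell-like cells at 59.5 and 60.6 CPM and plasma cell-like cells at 32.03 and 34.7 were lower than tumor-like cells, the former with overlapping intervals in C-ON.

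Because depth differs between cells, shares were also computed after thinning each cell to 1000 UMIs, which left out 4 and 72 tumor-like cells. *Nlgn3* then had a UMI in 7.28% (4.13 to 11.7) of 206 cells (C-ON) and 10.6% (8.96 to 12.5) of 1213 cells (FMC_new) of the tumor-like class, with exact 95% intervals, against 0.151% and 0.246% of oligodendrocyte-like and 0.212% and 0.1599% of T cell-like cells. *Nlgn1* had one in 58.7% and 53.7% of tumor-like cells, *Nrxn3* in 51.5% and 57.1% and *Lrrtm4* in 42.7% and 30.9%. *Adam10* had one in 7.77% and 8.24% of tumor-like, 10.9% and 11.4% of oligodendrocyte-like, 12.2% and 13.4% of microglia-like and 8.05% and 10.4% of T cell-like cells. For *Adam10*, the intervals of tumor-like cells lay below those of oligodendrocyte-like and microglia-like cells in FMC_new and overlapped them in C-ON.

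Classes were then compared with UMI counts summed per library and class, using edgeR's quasi-likelihood test with library as a block and Benjamini-Hochberg adjusted p-values over 15814 genes. Cells were grouped by other genes of the same cells, with the members and the lists below left out of the genes used for clustering. The p-values measure the spread between the sums of these 2 libraries only. Against oligodendrocyte-like cells, 7 members were higher in tumor-like cells and 1, *Adam10*, was lower at an adjusted p under 0.05. Of all genes 51.1% passed in this comparison (26.4% higher and 24.6% lower), so a call alone is common. The same 7 members were higher and *Adam10* lower against microglia-like cells, where 48.2% of genes passed (24.6% higher and 23.6% lower), and against T cell-like cells, where 52.7% passed (26.6% higher and 26.2% lower). Against astrocyte-like cells 5 members were higher, where 15.7% of genes passed (8.05% higher and 7.68% lower), and no member was lower, in edgeR at an unadjusted p under 0.05 or in DESeq2.

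The median log2 fold change of the 8 members was 3.4 against oligodendrocyte-like cells, 1.98 against astrocyte-like, 6.08 against microglia-like and 6.01 against T cell-like cells, where the medians of all genes tested were -0.08, 0.18, 0.02 and -0.02. Against oligodendrocyte-like cells *Lrrtm4* differed by 7.61 ± 0.48 (SE) on the log2 scale (adjusted p = 1.57e-09) and *Nrxn3* by 7.29 ± 0.41 (adjusted p = 4.665e-10). Both stood no higher in oligodendrocyte-like than in T cell-like cells in CPM, so the order of these differences is not read. *Nlgn3* was higher by 4.67 ± 0.49 (adjusted p = 6.875e-07), *Nlgn2* by 2.89 ± 0.33 (adjusted p = 1.836e-06) and *Nlgn1* by 2.76 ± 0.42 (adjusted p = 3.17e-05). *Lrrtm1* was higher by 3.91 ± 0.48 (adjusted p = 1.832e-05). *Nrxn2* had the smallest difference of the synaptic genes, 1.27 ± 0.45 (adjusted p = 0.0267), and did not pass in the fit without the library block (adjusted p = 0.2134).

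**Figure D2:**
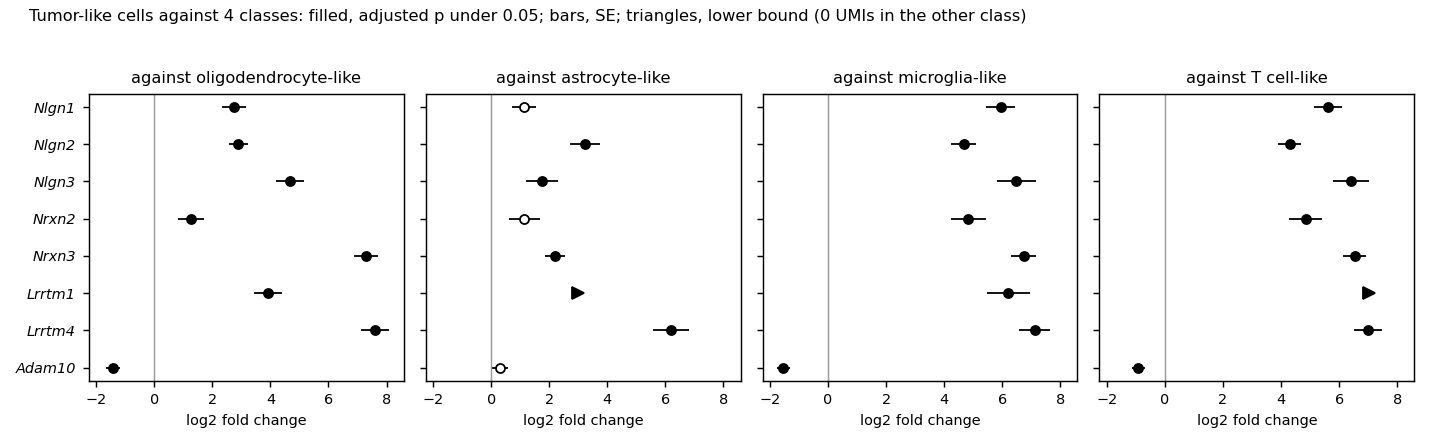
Log2 fold change of each gene in tumor-like cells against each of the 4 other classes, with points for the fitted value, bars for its SE, and triangles for the bound given by a floor of 3 UMIs where the other class had 0 UMIs. The 7 synaptic genes lie right of 0 in the 4 panels, and *Adam10* lies left of 0 against oligodendrocyte-like, microglia-like and T cell-like cells.

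Against astrocyte-like cells, *Lrrtm4* was higher by 6.19 ± 0.63 on the log2 scale (adjusted p = 4.223e-06), *Nlgn2* by 3.23 ± 0.52 (adjusted p = 0.0003771) and *Nrxn3* by 2.21 ± 0.35 (adjusted p = 0.0002712). *Nlgn3* passed with a small margin (1.75 ± 0.56, adjusted p = 0.04198) and did not pass under 6 of 12 alternatives, where its adjusted p reached 0.2206. *Nrxn3* did not pass with SCTransform clusters (adjusted p = 0.219). The astrocyte-like class of those clusters had 39 and 473 cells and was led by *Mia*, *Folr1* and *Cyp2f2*. In the main clusters these genes led a cluster without a name, so the cells compared were not the same. *Nlgn1* (1.12 ± 0.41, adjusted p = 0.07635), *Nrxn2* (1.15 ± 0.54, adjusted p = 0.169) and *Adam10* (0.29 ± 0.28, adjusted p = 0.5287) did not pass in the fit as planned. *Lrrtm1* had 0 UMIs in astrocyte-like cells, and over both libraries its level was at least 7.91-fold higher in tumor-like cells, when that class is set at a floor of 3 UMIs and the counting error of the tumor-like level is left aside (adjusted p = 0.002159). All values against this class rest on 19 cells of C-ON, and the 5 UMIs of *Lrrtm4* there came from 1 cell. They rest also on a class of FMC_new whose extent changed with the clustering resolution.

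Against microglia-like cells the synaptic genes were higher by 4.67 (*Nlgn2*) to 7.11 (*Lrrtm4*) on the log2 scale, and *Nlgn3* by 6.49 ± 0.68 (adjusted p = 6.723e-07). *Lrrtm1* rests there on 2 UMIs in microglia-like cells. Against T cell-like cells the differences ran from 4.29 (*Nlgn2*) to 6.99 (*Lrrtm4*), apart from *Lrrtm1*, which had 0 UMIs in T cell-like cells and was at least 129.7-fold higher in tumor-like cells by the same floor. *Adam10* fell by 1.54 ± 0.23 in tumor-like against microglia-like cells (adjusted p = 2.444e-05), by 1.42 ± 0.23 against oligodendrocyte-like cells (adjusted p = 4.733e-05) and by 0.92 ± 0.23 against T cell-like cells (adjusted p = 0.002152). The scaling between sums bears on this gene. With library totals in place of edgeR's TMM factors, the median of all genes moved from -0.08 to 0.53 against oligodendrocyte-like, from 0.02 to 0.65 against microglia-like and from -0.02 to 0.45 against T cell-like cells, and *Adam10* was at -0.80 against oligodendrocyte-like cells (adjusted p = 0.005684), -0.92 against microglia-like cells (adjusted p = 0.002024) and -0.43 against T cell-like cells (adjusted p = 0.1087). Set against the median of all genes it was at -1.34, -1.56 and -0.90 with TMM and at -1.33, -1.57 and -0.88 with totals.

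The tumor-like class joins 2 clusters, one led by *Pdgfra* and other precursor genes (166 and 856 cells) and one led by *Gpr17*, a gene of committed precursors (44 and 429 cells). The clusters were drawn from the same cells, so no test is given. The *Gpr17*-led cluster was also the shallower, with a median of 2243 UMIs per cell over both libraries against 6091.5 in the *Pdgfra*-led one. An immunoglobulin gene, *Igkv12-41*, was among the leading genes of the *Gpr17*-led cluster. With finer clustering, *Gpr17* was among the leading genes of a tumor-like cluster with a median of 6229 UMIs and of another with 1985.5. The 7 synaptic genes were lower in the *Gpr17*-led cluster in both libraries. The part of free RNA in these differences, which thinning does not remove, was not tested. *Nlgn3* was at 125 and 127 CPM in the *Pdgfra*-led and 29.6 and 58.1 in the *Gpr17*-led cluster, and *Nlgn1* at 1571 and 1245 against 437 and 465. *Lrrtm4* was at 937 and 629.7 CPM against 207 and 146. Among the neurexins, *Nrxn3* was at 1329 and 1494 against 304 and 416 and *Nrxn2* at 277 and 229 against 66.7 and 90.2. *Nlgn2* differed less, with 81.5 and 92.3 CPM against 59.2 and 50.04, and *Adam10* had no common direction, with 72 and 76.6 against 88.9 and 70.4.

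**Figure D3:**
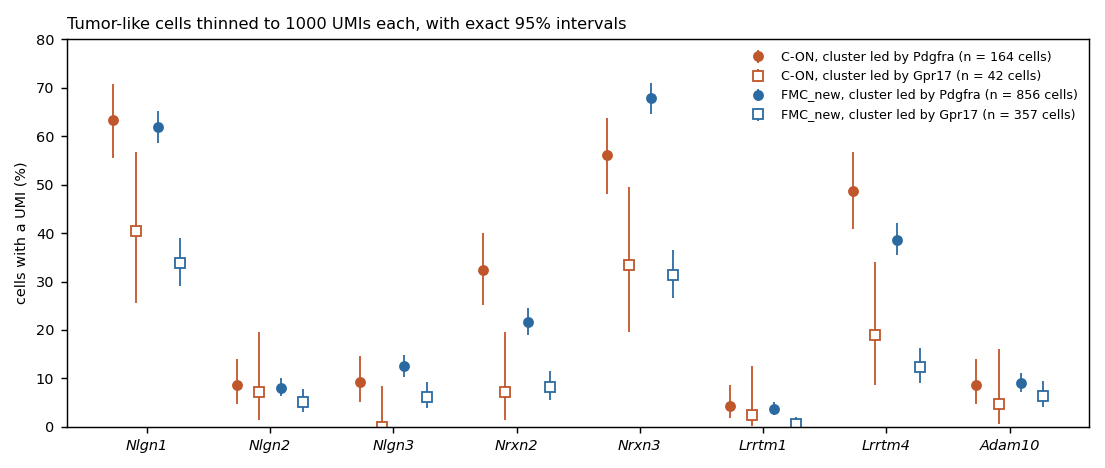
Share of tumor-like cells with a UMI of each gene (%) after thinning to 1000 UMIs, for the clusters led by *Pdgfra* and by *Gpr17* in each library, with bars for exact 95% intervals. In FMC_new *Nrxn3* was found in 67.9% of 856 cells of the first and 31.4% of 357 cells of the second, and *Adam10* in 8.99% and 6.44%.

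At equal depth, *Lrrtm4* had a UMI in 48.8% (40.9 to 56.7) of 164 cells of the *Pdgfra*-led and 19.1% (8.601 to 34.1) of 42 cells of the *Gpr17*-led cluster in C-ON, and in 38.7% (35.4 to 42.02) and 12.3% (9.1 to 16.2) in FMC_new. These intervals stood apart in both libraries. For *Nlgn3* the shares were 9.15% against 0 of 42 cells in C-ON, with overlapping intervals, and 12.5% (10.4 to 14.9) and 6.16% (3.902 to 9.18) in FMC_new. The intervals of *Nlgn2* and *Adam10* overlapped between the clusters in each library. In C-ON, those of *Nrxn2* and *Lrrtm4* alone stood apart, and in FMC_new those of the 6 genes other than *Nlgn2* and *Adam10*.

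Most tumor-like cells held both sides of the trans-synaptic pair. A neuroligin had a UMI in 92.4% and 87% of tumor-like cells, *Nrxn2* or *Nrxn3* in 91.4% and 86.3%, and both in 88.6% and 79.8%. At least 4 of the 7 synaptic genes were found in 71.9% and 61.6% of them, with a median of 4 per cell, and none in 4.29% and 5.99%. The pair was found in 47.4% and 32.2% of astrocyte-like, 21.9% and 19.3% of oligodendrocyte-like and 1.86% and 0.502% of T cell-like cells. These shares are not thinned. Median depths were 5260 and 5421 UMIs in tumor-like cells and only 3027 and 2787.5 in astrocyte-like and 3230.5 and 3131 in T cell-like cells. In the deeper oligodendrocyte-like cells the median number of synaptic genes was 1, and at least 4 were found in 0.244% and 0.194% of cells. In T cell-like cells the median was 0.

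*Nlgn3* and *Adam10* were found together in 14.3% and 15.9% of tumor-like cells and 1.33% and 1.701% of oligodendrocyte-like cells. *Adam10* had a UMI in 38.5% (27.7 to 50.2) of C-ON tumor-like cells with *Nlgn3* and 26.5% (19.2 to 34.9) of those without it, and in 39.7% (35.4 to 44.1) and 25.03% (22.01 to 28.2) in FMC_new. Deeper cells show more of any gene. After thinning to 1000 UMIs, C-ON had 13.3% (1.66 to 40.5) of 15 cells with *Nlgn3* against 7.33% (4.07 to 12) of 191 without it. FMC_new had 9.302% (4.9 to 15.7) of 129 cells against 8.12% (6.56 to 9.91) of 1084. The intervals overlapped in each library, but so few cells kept *Nlgn3* that they are wide. The part of depth in the difference before thinning was not tested.

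The UMIs of each gene were also divided by the class that held them. Tumor-like cells held 1.85% and 7.14% of all UMIs of kept cells in C-ON and FMC_new. They held 45% and 73.6% of the *Nlgn3* UMIs, 20.6% and 62.2% of those of *Nlgn1*, 47.9% and 65.7% of those of *Nrxn3* and 1.28% and 5.996% of those of *Adam10*. *Lrrtm4* had the largest part of its UMIs in this class among the 8 genes. In C-ON the large oligodendrocyte-like class (60.3% of cells) held 44.3% of the *Nlgn3* UMIs, nearly as many as tumor-like cells, and 57.03% of those of *Nlgn2* and 55.6% of those of *Lrrtm1*, more than the 23.8% and 34.9% of tumor-like cells. It held 68.1% of the *Nlgn1*, 82.1% of the *Nrxn2* and 79.3% of the *Adam10* UMIs, against 69.9% of all UMIs. Immune classes held 48.4% of the *Adam10* UMIs of FMC_new, against 49.8% of all UMIs.

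**Figure D4:**
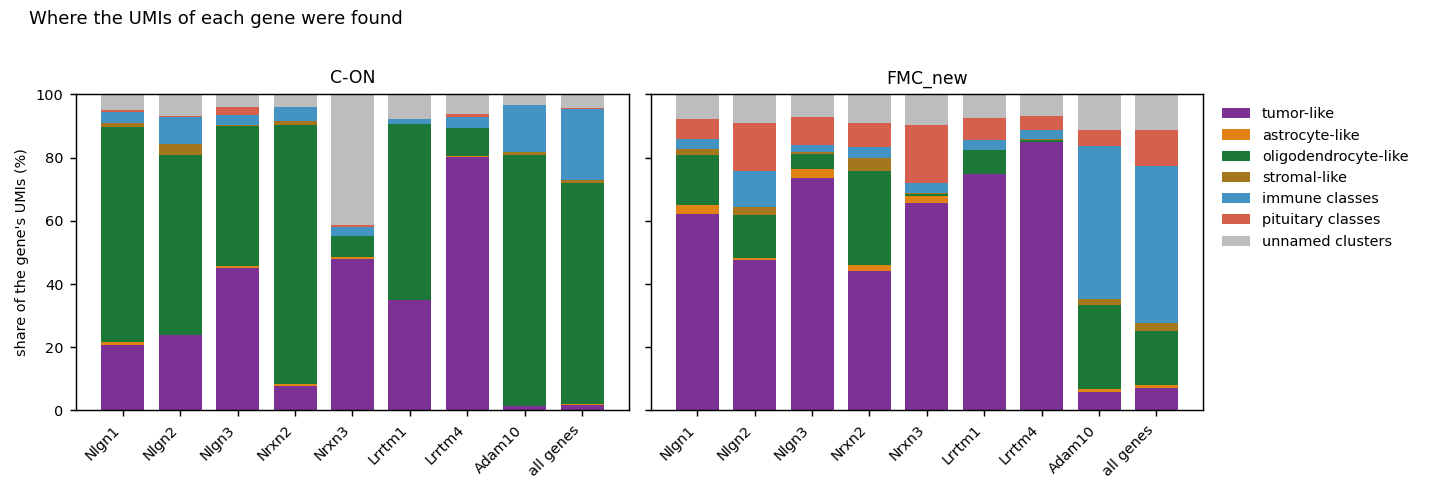
Share of the UMIs of each gene (%) found in each group of classes, in C-ON and FMC_new, as stacked bars with all genes for comparison. Tumor-like cells held 80.1% and 84.8% of the *Lrrtm4* UMIs, and unnamed clusters 41.3% of the *Nrxn3* UMIs in C-ON.

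In FMC_new, the highest level of *Nrxn3* in a named class other than tumor-like was in pituitary cells. In the class named for growth hormone and prolactin (360 cells, FMC_new) it was at 473 (452 to 495) CPM, with a UMI in 73.3% of cells and 28.6% after thinning. There *Nrxn2* was at 10.3 CPM, *Nlgn1* at 12.9, *Nlgn3* at 11.1 and *Adam10* at 29.5. In the class named for *Pomc*, the hormone precursor gene of corticotrophs and melanotrophs (826 cells of FMC_new), *Nlgn1* was at 96.3 CPM, *Nrxn3* at 83.8 and *Lrrtm4* at 21.8. This class was uneven. Its cluster led by *Oacyl*, *Chga* and *Pcsk2* (225 cells) had *Nlgn1* at 234 CPM and *Lrrtm4* at 66.6, and its cluster led by *Cidea*, *Tbx19* and *Crhr1* (601 cells) had them at 52.2 and 7.43. The 19 cells of C-ON put in this class held *Pomc* in 5.26% of cells and *Cga*, a glycoprotein hormone gene, in 84.2%, so the name does not hold for them. In C-ON, *Nrxn3* was at 1101 CPM in tumor-like cells. The part of free pituitary RNA in the levels of FMC_new was not tested.

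Other genes of the system were read from lists, with the share of all genes called as given above. *Lrrtm2* and *Lrrtm3*, the other LRRTM genes, were both higher against oligodendrocyte-like, microglia-like and T cell-like cells, and *Lrrtm2* also against astrocyte-like cells. *Lrrtm3* was at 262 and 227 CPM in tumor-like and 50.5 and 53.3 in oligodendrocyte-like cells (log2 1.62 ± 0.55, adjusted p = 0.01935), and *Lrrtm2* at 55.2 and 61.7 against 10.6 and 17.2 (log2 1.49 ± 0.35, adjusted p = 0.001589). Of 17 other neurexin-binding proteins 11 were tested. Of these, 8 were higher and 0 lower in edgeR against oligodendrocyte-like cells, 10 and 0 against T cell-like cells, 10 and 1 against microglia-like cells and 4 and 0 against astrocyte-like cells. *Nxph1*, a secreted ligand of neurexins, was at 666 and 566 CPM in tumor-like and 1.502 and 1.48 in oligodendrocyte-like cells (log2 8.02 ± 0.45, adjusted p = 4.665e-10). *C1ql2*, another secreted ligand, was at 136 and 141 against 0.174 and 0.118 CPM, and *Adgrl3*, a latrophilin, at 528 and 476 against 76.1 and 88.4.

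Of 6 regulators of neuroligins and receptors of LRRTM4, 3 were higher and 2 lower against oligodendrocyte-like cells, and 1 was higher and 2 lower against astrocyte-like cells. The counts were 3 and 0 against microglia-like and 4 and 0 against T cell-like cells. *Ptprs*, a receptor phosphatase, was at 121 and 94.5 CPM in tumor-like and 10.5 and 13.04 in oligodendrocyte-like cells (log2 2.57 ± 0.21, adjusted p = 2.806e-08). *Ptprd*, of the same family, fell by 3.09 ± 0.82 on the log2 scale (adjusted p = 0.004205), with 296 and 189 CPM in tumor-like and 1247 and 1213 in oligodendrocyte-like cells. *Mdga2*, whose protein keeps neuroligins from neurexins, was at 666 and 593 against 244 and 241 CPM and did not pass (adjusted p = 0.3548). Of 18 scaffold genes, 9 were higher and 2 lower against oligodendrocyte-like cells, 12 and 0 against microglia-like cells, 14 and 1 against T cell-like cells, and 2 and 0 against astrocyte-like cells. *Gphn*, the scaffold of inhibitory synapses, was at 926 and 597 CPM in tumor-like and 721 and 494 in oligodendrocyte-like cells and did not pass (adjusted p = 0.4755). *Magi2* at 912 and 566 against 1542 and 1469 CPM (adjusted p = 0.08055) and *Dlg2* at 481 and 322 against 359 and 318 (adjusted p = 0.6302) did not pass either.

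Of 11 regulators of ADAM10, 10 were tested, and 3 were higher and 4 lower against oligodendrocyte-like cells. The counts were 3 and 3 against microglia-like, 4 and 3 against T cell-like and 0 and 2 against astrocyte-like cells. *Timp3*, a metalloprotease inhibitor, was at 105 and 110.2 CPM in tumor-like and 5.09 and 6.78 in oligodendrocyte-like cells (log2 3.58 ± 0.38, adjusted p = 5.671e-07), and fell by 1.31 ± 0.37 against astrocyte-like cells (adjusted p = 0.02272), which had 107 and 426 CPM. The tetraspanins *Tspan5* and *Tspan15*, which bring ADAM10 to the cell surface, fell by 2.51 ± 0.33 and 3.05 ± 0.63 against oligodendrocyte-like cells (adjusted p = 6.299e-06 and 0.0005737). Against microglia-like cells *Tspan15* was higher by 1.87 ± 0.73 (adjusted p = 0.04308) and *Tspan5* did not pass (adjusted p = 0.2542). Of 9 other shedding proteases, 3 were higher and 4 lower against oligodendrocyte-like cells. The counts were 2 and 3 against microglia-like, 6 and 2 against T cell-like and 3 and 1 against astrocyte-like cells. *Adam12* was at 100.5 and 112 CPM in tumor-like and 3.92 and 3.36 in oligodendrocyte-like cells (log2 4.23 ± 0.40, adjusted p = 1.447e-07). *Adam9* was at 72.5 and 61.3 against 50.8 and 69.1 CPM and did not pass (adjusted p = 0.1945). *Mmp2*, a gelatinase, was at 41.99 and 52.5 against 8.403 and 3.77 CPM (log2 2.47 ± 0.48, adjusted p = 0.0005546) and had no UMI in astrocyte-like cells.

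Across the 24 sums of 12 classes in 2 libraries, the levels of synaptic members went together more than with *Adam10*. Pearson's r of log2(CPM + 1) between synaptic members ran from 0.54 (*Nrxn2* and *Lrrtm1*) to 0.93 (*Nlgn1* and *Nrxn2*), and between *Adam10* and a synaptic member from -0.24 (*Nlgn3*) to 0.11 (*Nrxn2*). Among 15158 genes, the pattern most like that of *Nlgn3* was that of *Grin3a* (r = 0.96), and the one most like *Lrrtm4* was *Pcdhb2* (r = 0.95). For *Nrxn3* it was *Lnx1* (r = 0.97), for *Nlgn1* *Dmd* (r = 0.97), for *Nrxn2* *Robo1* (r = 0.97), for *Nlgn2* *Gria3* (r = 0.89) and for *Lrrtm1* *Dct* (r = 0.98). For *Adam10* it was *Bcl9l* (r = 0.86). These values are descriptions over sums that share libraries and free RNA.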

How the data were processed

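Single-cell RNA sequencing of 2 libraries of optic nerve (10x, 5′ chemistry) was analysed from the UMI counts per gene and barcode that the authors deposited. These counts are raw and come from Cell Ranger, version 7.2.0 per the labels, aligned to mm10, while the study's methods name another version. The study also merged 2 published datasets, which are not used here. Barcodes with 500 to 5000 genes, 500 to 20000 UMIs and at most 5% mitochondrial UMIs were kept. Doublet scores were computed with scrublet, whose own threshold marked 1 cell in all and thus did not work, so no cell was removed, and leaving out the 5% highest scores was tried instead. Cells were normalised, integrated and clustered with Seurat 5.3.0 (2000 variable features, 30 components, resolution 0.8). For a name, at least 3 markers of a class had to be found in at least 20% of a cluster's cells at 2-fold or more. A cluster that met this stayed without a name if another class had more leading markers, or if cell cycle genes led. Clusters under 20 cells also stayed without a name. Unnamed clusters could therefore hold many class markers, such as 8 of 8 oligodendrocyte-like markers in the cluster led by *Smoc2*. Tests were run on counts summed per library and class, for classes with at least 10 cells in each library, with edgeR 4.0.16 (library and class as terms, TMM, filterByExpr, 11 residual degrees of freedom). Levels were planned for classes with at least 20 cells. The scripts were tested on simulated data. The text names the members, the 3 genes of each list with the highest level in tumor-like cells, and the gene most like each member, of 3 computed. One gene that this rule names is not reported here. The members, lists and tests were chosen with earlier results of these data known. Of the alternatives, 7 were planned and 5 were added after seeing the data. Nothing in the labels says that the libraries came from separate groups of animals. PCR copies are collapsed by UMI, and intervals cover counting error only.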

Additional observations from a re-analysis of the deposited data

Results flagged for a closer look

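Outside the named classes, members were found in clusters left without a name. The lower interval bound of these levels lay above the upper bound of the named class with the highest level in that library. That class was sought among those of at least 20 cells other than tumor-like. This left out the 19 astrocyte-like cells of C-ON, with *Nlgn1* at 1203 CPM, *Nrxn2* at 244 and *Nlgn3* at 30.5. These 3 levels were higher than those given below for C-ON. The 19 C-ON cells put in the *Pomc* class, also left out, had *Nlgn1* at 394 CPM and *Nlgn3* at 47.6. The levels of the unnamed clusters are values from cells that the comparisons did not use, and their explanation was not tested.

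The clearest case was the cluster led by *Avp*, *Syt10*, *Stmn2*, *Nms* and *Gad1*, with 35 cells in C-ON and 20 in FMC_new. *Nrxn3* was at 4028 CPM (3795 to 4272) there in C-ON and at 3400.0 CPM (3131 to 3687) in FMC_new, above the tumor-like level in both libraries. Its 35 cells of C-ON held 1110 of the 1151 *Nrxn3* UMIs found in unnamed clusters of that library. In C-ON the cluster had *Nlgn1* at 744 CPM, *Nlgn2* at 58.1, *Nlgn3* at 25.4, *Nrxn2* at 156.1, *Lrrtm1* at 21.8 and *Lrrtm4* at 188.7. In FMC_new it had *Nlgn1* at 1018 CPM, *Nrxn2* at 161.9 and *Lrrtm4* at 156.1. *Lrrtm1* in C-ON rests on 6 UMIs and *Nlgn3* on 7. Their lower bounds of 7.99 and 10.2 CPM lay below 13.5 CPM. That was the upper bound of both genes in the 49 B cell-like cells of C-ON, which had 0 UMIs of either.

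*Lrrtm4* was at 56.8 CPM (45.7 to 69.8) in the FMC_new cells of the cluster led by *Mia*, *Folr1* and *Cyp2f2* (287 cells). In the FMC_new cells of the cluster led by *Cxcl13*, *Tafa1* and *Gpr84* (124 cells) it was at 138.4 CPM (111.5 to 169.7), and this cluster held markers of both tumor-like and microglia-like cells. The highest named class other than tumor-like was the one named for *Pomc*, at 21.8 CPM.

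*Nlgn1* was at 330.4 CPM (224.5 to 469) in the C-ON cells of the cluster led by *Smoc2*, *Stra6* and *Dcn* (61 cells, 31 UMIs), against 124.5 CPM in stromal-like cells.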

How the results depend on the processing

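The counts of members called stayed within 1.5 times in each of 48 recomputed counts, and 369 recomputed fold changes of members kept their direction and their side of the threshold, while 9 no longer passed, 3 newly passed and 3 reversed. Of the recomputed tumor-like levels, 43 moved by less than the SD between the libraries and 21 by more, and of the shares of cells 34 and 38. Against astrocyte-like cells *Adam10* reversed to -0.0162 at resolution 0.4, to -0.0179 at 1.2 and to -0.0274 with SCTransform, and passed in no setting. *Nlgn3* against this class lost its call with RLE size factors, DESeq2, no library block, either resolution and library totals (adjusted p from 0.07836 to 0.2206). *Nlgn1* passed there without the 5% highest doublet scores (adjusted p = 0.02805) and with the *Pdgfra*-led cluster alone (adjusted p = 0.03629), and *Nrxn2* with SCTransform (adjusted p = 0.02637). With SCTransform the astrocyte-like class had more cells and other leading genes, as given above. The cause was not tested.

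Each class was summed in both libraries, so library was the block of the fit. With no replicate block, 7 members in place of 8 passed against oligodendrocyte-like cells and 4 in place of 5 against astrocyte-like cells. Leaving out a library leaves no residual degrees of freedom, so it gave levels and no test. Removing called doublets was not run, since 1 cell was called.

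Over all genes, calls against oligodendrocyte-like cells were 4177 higher and 3897 lower, and became 5587 and 1967 with RLE, 5825 and 2270 with DESeq2, 6065 and 1618 with library totals, 5043 and 3025 without the filter, 4919 and 2586 at resolution 0.4, 4958 and 2547 at 1.2, 3415 and 1783 with SCTransform, and 4877 and 2744 without the *Pomc* class. SCTransform called 5198 genes in place of 8074. Against astrocyte-like cells 1273 and 1214 became 937 and 1451 with RLE, 926 and 1475 with DESeq2, 929 and 1433 with SCTransform and 853 and 1477 with library totals. With totals, 3886 and 3732 became 6507 and 2290 against microglia-like cells, and 4203 and 4138 became 5753 and 2556 against T cell-like cells. Only 2 libraries, 19 astrocyte-like cells in C-ON and few UMIs of *Lrrtm1* limit these results.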
